A study of Mus musculus with 12 samples.

Results

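The response of wild-type mouse embryonic stem cells to Wnt3a was read from 6 of the 12 arrays of the series, 3 with Wnt3a and 3 in control medium. The wild-type cells are labelled Tcf3+/+, and the other 6 arrays hold Tcf3-/- cells in the same media. Tcf3 here is the older name of Tcf7l1, a Tcf/Lef factor, and not the E2A gene now called Tcf3. All groups grew without feeder cells in 15% serum with Lif, a cytokine that sustains self-renewal, at 1000 U/ml, and Wnt3a groups received 50 ng/ml of recombinant protein for 24 h. Wnt3a minus control differences were taken for every probe set with a single gene symbol, 34945 of the 45101 probe sets on the array, and each gene is read below by its brightest probe set unless another is named. Values are deposited intensities on the log2 scale, given in the order of arrays 1, 2 and 3 of a group, and a change is the Wnt3a mean minus the control mean, with its standard error (SE) from limma, n = 3 arrays per group throughout. A gene or probe set is called where the limma p, adjusted over all features tested, is under 0.05. The labels name no clone and do not tell whether the arrays of a group stand for separate cultures, so the spread behind the p-values may be only technical.

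Wnt3a is a secreted ligand of Frizzled and Lrp receptors. Receptor binding halts the destruction of beta-catenin, which then joins Tcf/Lef factors on DNA, and many genes switched on in this way encode inhibitors of the pathway, such as Axin2, Nkd1 and Notum. In mouse embryonic stem cells Tcf7l1 is known mainly as a repressor of genes of the naive pluripotent state, and Wnt signals relieve that repression. In bulk RNA, fewer cells of a type and less RNA per cell cannot be told apart.

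Tcf/Lef factors recognise the letters CTTTGAT and CTTTGTT. These were searched on both strands in the 250 bases before the start of each gene, using RefSeq promoters of mouse build GRCm38.p6. Of 32851 promoters 8.06% held either motif, 3.21% CTTTGAT and 5.03% CTTTGTT. Among tested Wnt target and feedback genes, 18 had an entry, and 4 of their 23 promoters (17.4%) held a match. The match was found in 2 of 6 promoters of genes called higher with Wnt3a, in 1 of 5 of genes called lower and in 1 of 12 of genes that did not pass. The 2 promoters below are those of the called rises with a match, Sp5 on the plus strand of chr2:70474673-70474922 and Tnfrsf19 on the minus strand of chr14:61037988-61038237, each written in the direction of its gene with the matches in capitals.
Sp5: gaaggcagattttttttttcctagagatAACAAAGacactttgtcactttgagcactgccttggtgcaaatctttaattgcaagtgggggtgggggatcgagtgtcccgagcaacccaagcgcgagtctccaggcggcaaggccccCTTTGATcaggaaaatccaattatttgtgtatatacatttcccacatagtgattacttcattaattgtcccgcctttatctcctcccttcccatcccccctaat
Tnfrsf19: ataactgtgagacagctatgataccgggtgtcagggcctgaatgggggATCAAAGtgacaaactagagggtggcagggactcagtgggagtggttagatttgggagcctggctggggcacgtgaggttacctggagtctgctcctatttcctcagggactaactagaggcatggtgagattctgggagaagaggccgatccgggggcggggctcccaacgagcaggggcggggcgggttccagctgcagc
In Sp5 the match to CTTTGAT begins 104 bases before the start, and AACAAAG, which reads CTTTGTT on the other strand, lies 222 bases before it. In Tnfrsf19 the match is ATCAAAG, which reads CTTTGAT on the other strand, 202 bases before the start. A match describes letters in this window and is not evidence of binding.

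The arrays of the 2 media also differed in their spike-in controls and in signs of how the RNA was prepared. Of the spike-in controls measured, all but trp were higher on every Wnt3a array than on every control array, by 7.18 (log2) for dap, a transcript added before labelling, and by 2.58 for bioB, added at hybridization. Signal for 18S ribosomal RNA rose from a mean of 8.81 to 10.69 (log2), and the 3' minus 5' difference of Tfrc fell from 1.56 to 1.11, again with no overlap. Medium and preparation cannot be told apart, and every change below includes both. Array medians ran from 72.5 to 73.4 intensity units in control medium and from 68.5 to 70.1 with Wnt3a. Arrays correlated at 0.995 to 0.998 over probe sets within a medium and at 0.985 to 0.990 between media. Within the groups, control array 2 lay nearest to the Wnt3a arrays in 18 of the 22 naive pluripotency genes called higher, and Wnt3a array 3 was the most extreme in 19 of them.

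Stem cell markers were present in both media. All 11 stem cell markers lay above the floor of 5.56 (log2, the 40th percentile of all probe sets), with a summed intensity of 83273 to 89587 in control medium and 98782 to 106334 with Wnt3a. Single markers went in both directions. Utf1 (-0.33) and Lin28a (-0.25) were called lower, Fgf4 (-0.33) and Dppa5a (0.04) were not called, and the rest were called higher. Markers of fibroblasts summed to 531 to 619 and 506 to 523, with 6 of 8 above the floor in each medium and Col3a1 and Lum under it on all arrays. Markers of extraembryonic endoderm summed to 652 to 847 and 856 to 1133, with 5 of 7 above the floor in control medium and 6 with Wnt3a, and Afp under it throughout. The endoderm and fibroblast sums did not overlap between media, and their part in the changes below was not tested. Trophectoderm (606 to 796 and 572 to 654), primitive streak (310 to 351 and 310 to 336), neural (702 to 821 and 717 to 893) and blood marker sums (296 to 326 and 272 to 311) overlapped. Elf5, Gsc, Tbx6, Ptprc, Cdh5 and Tal1 lay under the floor on all 6 arrays.

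With Wnt3a, 2615 of 13811 tested genes were higher (18.9%) and 3118 lower (22.6%), so 41.5% passed in all (limma, adjusted p under 0.05). Changes were mostly small. Of the genes called, 101 rose at least 2-fold (0.731%) and 168 fell at least 2-fold (1.22%), 269 in all (1.95%), and the median change over all genes was -0.02 on the log2 scale, with a median SE of 0.089. Wild-type arrays of the 2 media did not overlap in 7299 genes (52.8%). Higher calls made up 45.6% of all calls, 61.5% once each array was centred on its median and 40.7% after a repeated quantile normalization.

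Because preparation moved with the medium, the probe sets of each gene were set against each other. Of 2858 called genes with at least 2 tested probe sets, 837 (29.3%) had all of them called the same way, and 503 (17.6%) had a probe set called the other way. For genes called and changed at least 2-fold the shares were 64 of 126 (50.8%) and 12 of 126 (9.52%). Of these 64 genes 24 were higher and 40 lower. Of 24503 probe sets tested, 10788 (44.0%) were called, and 477 rose at least 2-fold. Only 102 of those 477 were the brightest probe set of their gene, while 375, from 314 genes, were dimmer ones. The control mean lay under the floor for 8 of the 102 and 41 of the 375. The brightest probe sets of those same genes had a median change of 0.22, and for 160 of the 375 the brightest was not called and for 19 it was called lower. Among 280 probe sets that fell at least 2-fold, 168 were the brightest and 112 dimmer, with a median of -0.49 on the brightest. Of all 24503 probe sets tested, 13811 were the brightest of their gene. Rises of at least 2-fold thus stood mostly on dimmer probe sets, while falls were divided much as all probe sets were. In Tcf3-/- cells the same 375 dimmer probe sets had a median change of 0.92, against 1.32 in wild type.

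**Figure D1:**
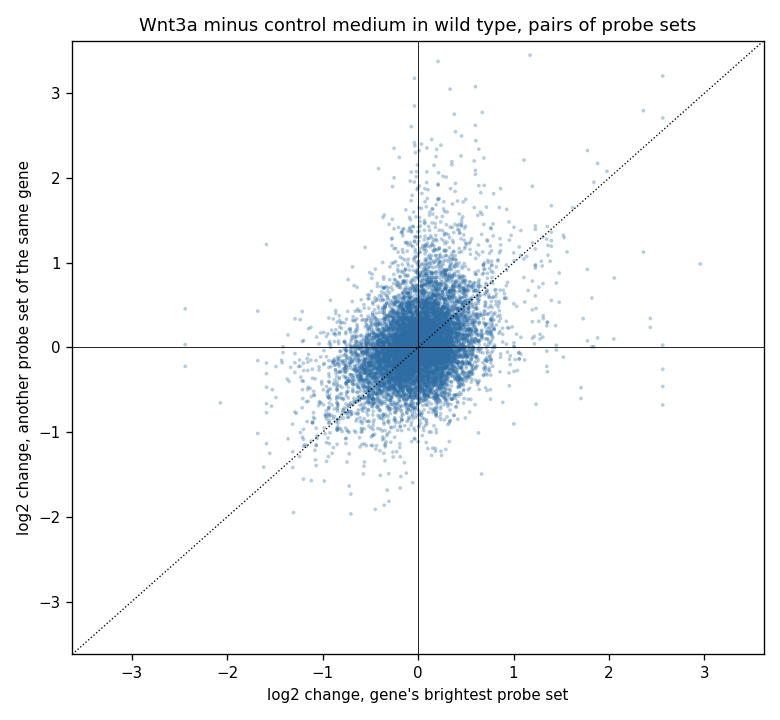
Log2 change with Wnt3a in wild-type cells for the brightest tested probe set of a gene (horizontal) and each other tested probe set of that gene (vertical); each of 10689 points is a pair, and the dotted line marks equal changes. The cloud reaches further up than to the right, since 375 dimmer probe sets rose at least 2-fold against 102 brightest ones.

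Of 32 Wnt target and feedback genes tested, 8 were higher and 7 lower (21.9%) with Wnt3a, beside 18.9% and 22.6% of all genes, and the median was -0.04, which became 0.03 when arrays were centred on their median. Cdx1, a caudal-type homeobox gene, had the largest rise. Its log2 values were 6.68, 5.58 and 5.88 on the control arrays and 8.61, 8.87 and 9.31 with Wnt3a, a 7.38-fold rise (log2 2.88 ± 0.24 SE, adjusted p = 1.05e-05). Sp5, a zinc-finger gene, read 9.44, 8.08 and 8.59 in control medium and 10.78, 10.58 and 10.34 with Wnt3a, 3.63-fold higher (log2 1.86 ± 0.26 SE, adjusted p = 0.000226). In both genes all Wnt3a arrays lay above all control arrays, and the control arrays were the more scattered. Both were read by a single probe set.

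Axin2, which encodes a scaffold of the beta-catenin destruction complex, rose less. It read 8.995, 8.24 and 8.67 in control medium and 9.35, 9.35 and 9.49 with Wnt3a (log2 0.76 ± 0.15 SE, adjusted p = 0.00232), and both of its probe sets were called higher. The cyclin gene Ccnd2 read 8.76, 9.18 and 8.54 in control medium and 10.03, 10.19 and 10.45 with Wnt3a (2.63-fold higher, adjusted p = 0.000116), and its 6 probe sets were all called higher, 1 of them from a control mean under the floor. Gbx2, a homeobox gene that also stands in the naive list, rose 2.08-fold (adjusted p = 7.36e-05), from 9.86, 10.26 and 10.003 to 11.07, 11.01 and 11.22. Smaller rises came from the receptor gene Lgr5 (at least 1.26-fold, from a control mean under the floor) and the feedback inhibitor Nkd1 (0.27 on the log2 scale, a call lost with the mean of all probe sets, adjusted p = 0.134). Tnfrsf19, whose promoter is shown above, rose by 0.55 with all 3 probe sets called.

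The 7 target genes called lower included genes of the AP-1 factors. Jun read 9.99, 9.48 and 9.78 in control medium and 8.97, 8.59 and 8.13 with Wnt3a, 2.27-fold lower (log2 -1.19 ± 0.20 SE, adjusted p = 0.000682), and Fosl1 was 2.19-fold lower (log2 -1.13 ± 0.091 SE, adjusted p = 9.07e-06), each on 2 of 2 probe sets without overlap. Twist1 fell by 0.68 on the log2 scale. Cd44, named after its values were seen, encodes a hyaluronan receptor and was 2.11-fold lower on 2 of 2 probe sets, from 7.20, 6.91 and 7.05 to 5.95, 6.01 and 5.97. Other well-known targets did not pass on their brightest probe set: Lef1 changed by -0.02 (adjusted p = 0.939), Myc by -0.08 (0.586), Ccnd1 by -0.20 (0.0526), Cdx2 by -0.24 (0.278), and the inhibitor genes Dkk1, Znrf3 and Notum by 0.15, -0.14 and 0.39 (0.65, 0.343 and 0.0804). A dimmer probe set of Lef1 was called higher (0.58). Both other probe sets of Ccnd1 were called lower (-0.32 and -0.45, adjusted p = 0.0218 and 0.00184), and the gene was called lower with the mean of all probe sets (-0.32, adjusted p = 0.00617) and after a repeated quantile normalization (-0.32, adjusted p = 0.00385).

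**Figure D2:**
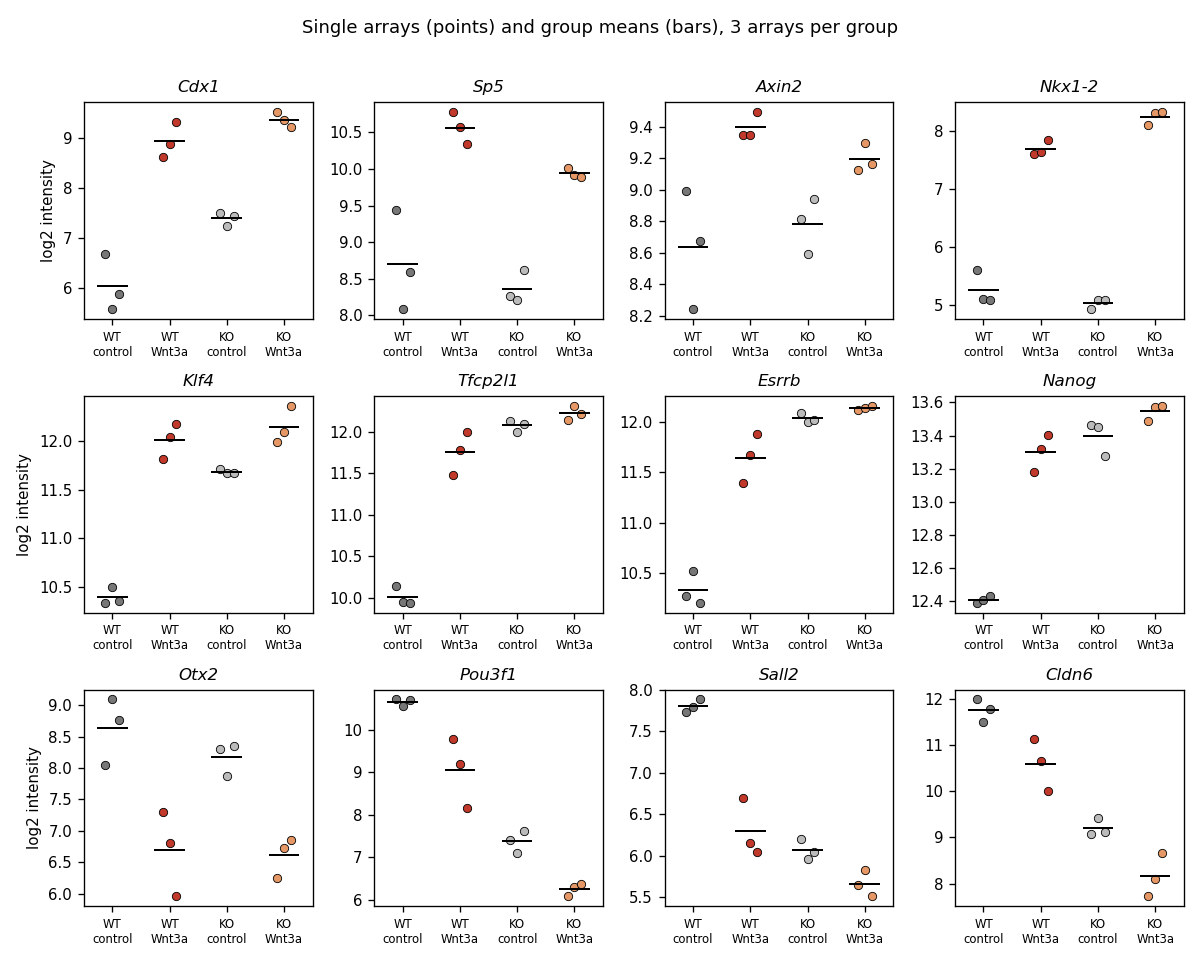
Log2 intensity of 12 genes on each array (points) with group means (bars), for wild-type (WT) and Tcf3-/- (KO) cells in control medium and with Wnt3a, 3 arrays per group. In wild type every Wnt3a array lies above every control array for the upper 8 genes and below for the lower 4.

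Of 16 genes for Wnt ligands and their secretion 6 fell (37.5%, beside 22.6% of all genes) and 1 rose (median -0.04). The riser was Porcn, the acyltransferase that lipidates Wnt proteins, at 8.37, 8.12 and 8.29 in control medium and 9.74, 9.75 and 9.94 with Wnt3a (2.93-fold, adjusted p = 1.79e-06). Wnt4 fell 2.42-fold on 2 of 2 probe sets (10.73, 9.74 and 10.26 in control medium and 9.33, 8.91 and 8.67 with Wnt3a, adjusted p = 0.000861), and Rspo1, a secreted amplifier of Wnt signals, fell 1.75-fold. Of 29 receptors and extracellular inhibitors 12 fell (41.4%) and 4 rose (median -0.22). Among receptor genes Fzd5 rose 1.90-fold with 1 of its 2 probe sets called, while Fzd2 fell 2.12-fold, Lrp5 at least 1.65-fold, to under the floor, and Fzd8 1.65-fold. The genes for Frizzled receptors thus went in both directions.

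Of 34 intracellular transducers 9 fell and 5 rose (median 0.04), and 26.5% and 14.7% are shares near those of all genes. The mRNA of beta-catenin itself, Ctnnb1, changed by 0.00 on its brightest probe set, with 13.85, 13.84 and 13.83 in control medium and 13.83, 13.87 and 13.82 with Wnt3a, although a dimmer one was called higher (0.60). Tcf7l1 read 10.77, 10.90 and 10.87 in control medium and 10.50, 10.41 and 10.21 with Wnt3a, 1.39-fold lower (log2 -0.47 ± 0.10 SE, adjusted p = 0.00358), on both probe sets. Its relative Tcf7l2 was 1.91-fold lower on 2 of 3 probe sets. Dvl1, which relays the receptor signal, and the beta-catenin cofactor gene Bcl9 fell by 0.58 and 0.48, each on 2 of 2 probe sets. Tle5, of the Groucho corepressor family, rose 1.89-fold.

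Most of the naive pluripotency network rose. Of 30 genes tested, 22 were called higher (73.3%, beside 18.9% of all genes) and none lower. The median was 0.66 beside -0.02 over all genes, and 10 of the 22 rose at least 2-fold. Arrays did not overlap in 20 of the 22 called genes. Of all genes tested, called or not, 24.5% were higher without overlap, a share with another base. Of the 10 called genes with several probe sets 7 had every set called higher. The largest rises were in transcription factors of the network: Tbx3, Tfcp2l1, Klf4 and Nr5a2. Klf4 read 10.34, 10.49 and 10.35 on the control arrays and 11.82, 12.04 and 12.18 with Wnt3a, 3.07-fold higher (log2 1.62 ± 0.10 SE, adjusted p = 1.88e-06, 2 of 2 probe sets). Tfcp2l1 read 10.14, 9.95 and 9.94 in control medium and 11.48, 11.79 and 12.001 with Wnt3a (3.35-fold, log2 1.75 ± 0.11 SE, adjusted p = 1.88e-06). Tbx3 read 8.26, 8.25 and 8.38 in control medium and 9.62, 10.18 and 10.42 with Wnt3a (3.42-fold, log2 1.77 ± 0.17 SE, adjusted p = 2.21e-05), with 3 of 4 probe sets called. The control arrays of all 3 genes lay close together and the Wnt3a arrays were wider apart.

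The orphan nuclear receptor genes Nr5a2 and Esrrb rose together, each on 3 of 3 probe sets. Nr5a2 read 9.77, 10.21 and 9.85 in control medium and 11.18, 11.31 and 11.42 with Wnt3a (2.57-fold, adjusted p = 1.05e-05), and Esrrb 10.27, 10.53 and 10.21 in control medium and 11.39, 11.67 and 11.88 with Wnt3a (2.48-fold, adjusted p = 1.31e-05). Nanog, a homeobox factor of the core circuit, read 12.39, 12.40 and 12.43 in control medium and 13.18, 13.32 and 13.40 with Wnt3a, 1.86-fold higher (log2 0.89 ± 0.072 SE, adjusted p = 9.07e-06), with very little spread in either group. The transcriptional regulator gene Prdm14 rose 2.33-fold (7.35, 7.98 and 7.55 against 8.48, 8.89 and 9.16, adjusted p = 0.000279). Klf5 rose 1.55-fold, Zfp42, known as Rex1, 1.56-fold and Klf2 1.41-fold. Jam2, a junctional adhesion gene named after its values were seen, rose 2.34-fold with 5 of 5 probe sets called.

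Not all members of the list followed. Pecam1 changed by 0.41 (adjusted p = 0.0734) and Stat3, the transcription factor downstream of Lif, by 0.23 (0.0532), and neither passed. With arrays centred on their median both passed (0.0442 and 0.0195). Pecam1 also passed after a repeated quantile normalization (0.0451) and without wild-type control array 2 (0.0185). Stat3 also passed with a stricter filter (0.0452), with an intensity trend (0.0416) and without Tcf3-/- control array 2 (0.043) or wild-type Wnt3a array 1 (0.0166). Dppa3, an oocyte and germ-line factor, was called higher (0.46, adjusted p = 0.0295), but its arrays overlapped, with 9.70, 9.56 and 9.86 in control medium and 10.51, 10.15 and 9.82 with Wnt3a, and the call was lost without control array 1 (0.0699) or 2 (0.0966) or Wnt3a array 1 (0.107) or 2 (0.0655).

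**Figure D3:**
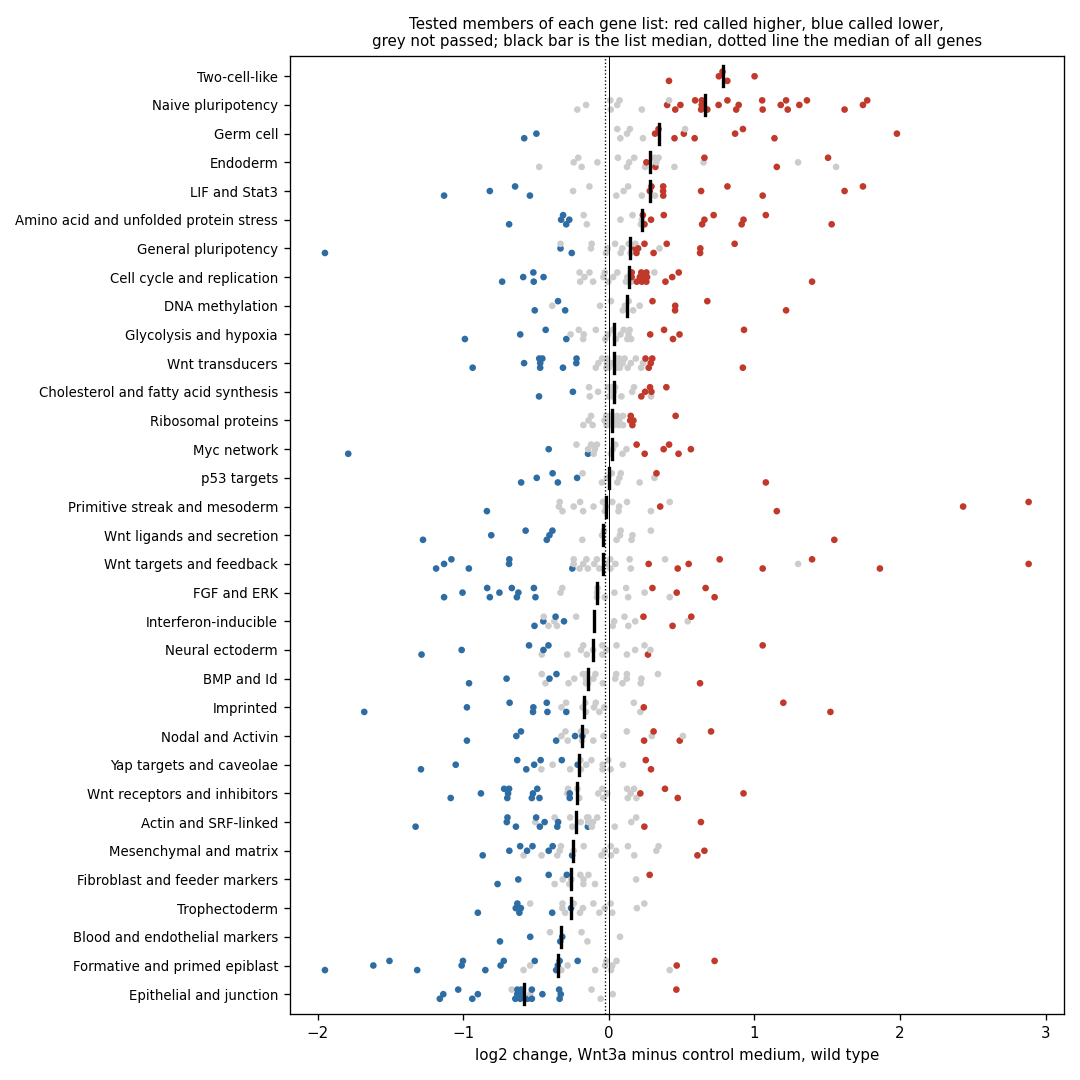
Log2 change with Wnt3a in wild-type cells for every tested member of 33 gene lists, ordered by list median; red points were called higher, blue called lower and grey did not pass, the black bar is the list median and the dotted line the median of all genes. Naive pluripotency (median 0.66) stands near the top and epithelial and junction genes (median -0.58) at the bottom.

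Genes of general pluripotency moved less. Of 24 tested, 9 were higher (37.5%, beside 18.9% of all genes) and 3 lower (12.5%, beside 22.6%), with a median of 0.14. The 3 lower were Otx2, Utf1 (-0.33) and Lin28a (-0.25). Sox2 read 12.46, 12.61 and 12.51 in control medium and 13.09, 13.12 and 13.25 with Wnt3a (1.54-fold higher, adjusted p = 0.000161), without overlap. Pou5f1, which encodes Oct4, read 13.05, 12.99 and 13.13 in control medium and 13.21, 13.26 and 13.31 with Wnt3a (0.20, adjusted p = 0.0495), and its call was lost without any 1 of the 6 wild-type arrays (adjusted p from 0.0541 to 0.141). It was also lost without Tcf3-/- control array 1 (0.0613) or Tcf3-/- Wnt3a array 1 (0.0515) or 2 (0.0651) and with no filter (0.0597), and a repeated quantile normalization lowered the change to 0.089 (adjusted p = 0.379). Of 21 Lif and Stat3 pathway genes 10 rose and 4 fell (median 0.28). Of the 7 risers with several probe sets 5 had all of them called higher. Socs3, a feedback inhibitor of Stat3 named after its values were seen, rose 1.76-fold (11.29, 11.46 and 11.28 against 12.19, 12.14 and 12.14). The AP-1 gene Junb fell 1.76-fold (adjusted p = 0.00196).

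Genes of the formative and primed epiblast moved the other way. Of 27 tested, 14 fell (51.9%, beside 22.6% of all genes) and 2 rose (7.41%, beside 18.9%), with a median of -0.35. All 14 called falls came without overlap of arrays. Of all genes tested, called or not, 28.3% fell without overlap, a share with another base. Otx2, a homeobox factor that accompanies exit from the naive state, read 8.05, 9.09 and 8.77 in control medium and 7.30, 6.80 and 5.96 with Wnt3a, 3.86-fold lower (log2 -1.95 ± 0.33 SE, adjusted p = 0.000722). Pou3f1, the POU factor Oct6, read 10.72, 10.57 and 10.70 in control medium and 9.78, 9.20 and 8.16 with Wnt3a, 3.07-fold lower on 2 of 2 probe sets (log2 -1.62 ± 0.30 SE, adjusted p = 0.00139). Sall2 read 7.73, 7.79 and 7.88 in control medium and 6.69, 6.16 and 6.04 with Wnt3a (2.84-fold lower, log2 -1.51 ± 0.15 SE, adjusted p = 2.6e-05). In these 3 genes Wnt3a array 3 was the lowest. Igfbp3 fell 2.49-fold and the Sox factor gene Sox3 2.01-fold, each on 2 of 2 probe sets, and the de novo methyltransferase gene Dnmt3b fell by 0.51 on its brightest probe set, with 1 of 2 called. The risers were Etv5 and Etv4, ETS factors induced by FGF signals, at 0.73 and 0.47, on 3 of 3 and 2 of 2 probe sets. Fgf4 changed by -0.33 and the cadherin gene Cdh2 by -0.59, and neither passed (adjusted p = 0.0729 and 0.117). Fgf4 passed after a repeated quantile normalization (0.0175), with an intensity trend (0.0487) and without wild-type control array 1 (0.0152) or wild-type Wnt3a array 3 (0.032). Cdh2 passed with only the 6 wild-type arrays (0.00679) and without Tcf3-/- Wnt3a array 1 (0.0146).

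Epithelial and junction genes had the lowest median of the 33 lists. Of 24 tested, 18 fell (75.0%, beside 22.6% of all genes) and 1 rose (4.17%, beside 18.9%), with a median of -0.58. Among the 18 called falls 17 came without overlap. Of all genes tested, called or not, 28.3% fell without overlap, a share with another base. The claudins, tight junction proteins, led the group. Cldn6 read 11.99, 11.49 and 11.77 in control medium and 11.13, 10.64 and 9.997 with Wnt3a (2.23-fold lower, log2 -1.16 ± 0.27 SE, adjusted p = 0.00569), and Cldn7 11.39, 10.70 and 11.14 in control medium and 10.56, 10.03 and 9.24 with Wnt3a (2.20-fold lower, adjusted p = 0.00739). Cldn4 fell 2.05-fold and Esrp1, an epithelial splicing regulator, 1.91-fold. E-cadherin, Cdh1, named after its values were seen, changed by -0.12 (adjusted p = 0.331), with 12.79, 12.69 and 12.73 in control medium and 12.66, 12.62 and 12.57 with Wnt3a. In 16 of the 18 falls Wnt3a array 3 was the lowest, and in 13 control array 2 was the lowest control.

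The keratin genes were less firm. Krt8 read 14.000, 13.32 and 13.66 in control medium and 13.20, 13.05 and 12.84 with Wnt3a (-0.63, adjusted p = 0.0203, 3 of 3 probe sets), and lost its call without control array 1 (0.0865) or 3 (0.0534) or Wnt3a array 3 (0.0729). Krt19 (-0.90, adjusted p = 0.018) lost it without control array 1 (0.0767) or Wnt3a array 3 (0.0599), and with only the 6 wild-type arrays in the fit (0.0594). Krt18 stood just short of a call (-0.54, adjusted p = 0.0528). Repeated quantile normalization (limma, adjusted p = 0.0447), a stricter filter (0.0495) and an intensity trend (0.0341) each brought it under 0.05. So did a fit of the 6 wild-type arrays alone (0.04997). Leaving out wild-type control array 2 (0.0134) or Tcf3-/- control array 1 (0.035) or 2 (0.0254) had the same result. Adjusted over all probe sets, its probe set was called lower (0.0479).

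Cytoskeletal and matrix lists are to be read beside 22.6% of all genes lower and 18.9% higher. Of 26 actin and SRF-linked genes 10 fell (38.5%) and 2 rose (median -0.22), led by the calponin gene Cnn1 (2.51-fold lower, 11.12, 10.36 and 10.87 against 10.13, 9.51 and 8.73, adjusted p = 0.00573). The transcription factor gene Srf fell 1.62-fold and Csrp1 1.62-fold, each on 2 of 2 probe sets. Tagln and Acta1 changed by -0.37 and -0.51 and did not pass (adjusted p = 0.189 and 0.171). Acta1 passed without wild-type control array 2 (0.0309). Of 22 Yap target and caveolae genes 8 fell (36.4%) and 2 rose (median -0.20). Cav1, the main caveolae protein, fell 2.44-fold, from 8.80, 7.97 and 8.39 to 7.01, 7.08 and 7.19 (adjusted p = 9.74e-05), and the receptor kinase gene Axl fell 2.07-fold.

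Of 26 mesenchymal and matrix genes 8 fell (30.8%) and 2 rose (median -0.25). Itga3 fell 1.82-fold with 1 of 3 probe sets called, while the intermediate filament gene Vim rose 1.52-fold on 3 of 3. Of 15 fibroblast and feeder markers 4 fell, a share near that of all genes (26.7% beside 22.6%), and 1 rose (median -0.26), with Loxl1 and Col5a1 at -0.76 and -0.62. The summed fibroblast markers, 531 to 619 against 506 to 523, moved in the same direction. No single summed marker was called lower, however, and Pdgfrb was called higher (0.28). Col3a1 and Lum were not tested. Of 8 blood and endothelial markers 4 fell (50.0%, beside 22.6% of all genes) and none rose (median -0.33). The largest fall was that of Cd34, at least 1.38-fold lower with a Wnt3a mean under the floor. Another of the 4, Runx1, fell by 0.32 on its brightest probe set, while a dimmer one was called higher (0.67). Its call was lost with arrays centred on their median (limma, adjusted p = 0.0693) and after a repeated quantile normalization (0.102). It was also lost without any 1 wild-type control array or without wild-type Wnt3a array 1 or 3 (0.0501 to 0.111). With probe sets averaged Runx1 changed by 0.034.

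Of other signalling pathways, 10 of 25 FGF and ERK genes fell and 4 rose (median -0.08), with Fosl1 and Ier3 (2.01-fold lower) at the low end and Fgf15 1.78-fold lower. Etv5 was the largest rise of this list. The 25 BMP and Id genes held fewer calls than all genes, with 4 lower (beside 22.6% of all) and 1 higher (beside 18.9%; median -0.14). Id2 read 11.65, 11.54 and 11.58 in control medium and 10.96, 10.58 and 10.35 with Wnt3a (1.94-fold lower, 3 of 3 probe sets, adjusted p = 0.00293), and Id1 12.63, 12.66 and 12.63 in control medium and 12.12, 11.95 and 11.73 with Wnt3a (1.63-fold lower, adjusted p = 0.000462). The ligand gene Bmp4 rose 1.54-fold while these BMP-responsive genes fell. Of 21 Nodal and Activin genes 6 fell and 4 rose (median -0.18), shares near those of all genes (28.6% lower beside 22.6%), with Foxh1, the DNA-binding partner of Smad2, 1.96-fold lower on 3 of 3 probe sets. Lefty1 changed by -0.33 and Inhbb by 0.51, and neither passed (adjusted p = 0.275 and 0.109). Inhbb passed without wild-type control array 2 (0.00994) or wild-type Wnt3a array 1 (0.0227).

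Markers of differentiated lineages are to be read beside 18.9% of all genes higher and 22.6% lower. In the primitive streak and mesoderm list 4 of 21 rose and 1 fell (median -0.02). Besides Cdx1 the homeobox gene Nkx1-2 rose, from 5.61, 5.10 and 5.09 to 7.61, 7.64 and 7.85, at least 4.41-fold above the floor (adjusted p = 8.32e-07), although only 2 of its 3 probe sets were called and the other control means also lay under the floor. Of 22 endoderm genes 5 rose (22.7%) and none fell (median 0.29). Lama1, a laminin chain of basement membranes, read 7.91, 8.08 and 7.43 in control medium and 9.002, 9.23 and 9.69 with Wnt3a (2.84-fold higher, adjusted p = 0.00632), and Lamc1 rose 1.58-fold. Pdgfra rose 2.22-fold on 2 of 2 probe sets, a call lost without control array 3 (adjusted p = 0.0561) or Wnt3a array 3 (0.0549). Sox17, with a control mean at the floor, and Cubn (1.56) did not pass (adjusted p = 0.0569 and 0.0531). Both passed with only the 6 wild-type arrays (0.00401 and 0.00257), with arrays centred on their median (0.0414 and 0.0403), with an intensity trend (0.0385 and 0.035) and without Tcf3-/- control array 1 (0.00961 and 0.00722) or 2 (0.0057 and 0.00795), and Cubn also with a replicate block (0.0352). The summed extraembryonic endoderm markers, 652 to 847 against 856 to 1133, moved in the same direction as the list. No single summed marker was called, however, and Afp was not tested. The brightest of them was Dab2, with means of 8.41 in control medium and 8.86 with Wnt3a (log2). Of 21 trophectoderm genes 7 fell (33.3%) and none rose (median -0.26), with Plac1 1.56-fold lower. Of 21 neural genes 5 fell (23.8%) and 2 rose (9.52%), with a median of -0.11. Map2 was at least 2.11-fold lower, to under the floor.

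Across all genes tested, in the lists or not, the largest rises named with every probe set in support were in Gad1, Ntn1 and Kit. This ranking and those below of falls and of genes with a single probe set passed over RIKEN names, Gm numbers and other provisional names. Genes whose wild-type arrays overlapped between media were also left out of these rankings. Gad1, the glutamate decarboxylase that makes GABA, read 5.44, 4.66 and 4.75 in control medium, under or near the floor, and 7.58, 7.97 and 8.17 with Wnt3a, at least 5.08-fold higher (adjusted p = 6.59e-06). Ntn1, the guidance molecule netrin-1, read 8.97, 8.84 and 8.73 in control medium and 10.78, 10.83 and 11.09 with Wnt3a (4.15-fold, log2 2.05 ± 0.12 SE, adjusted p = 1.33e-06). Kit, the receptor of stem cell factor, read 8.74, 8.68 and 8.67 in control medium and 10.43, 10.69 and 10.90 with Wnt3a (3.94-fold, log2 1.98 ± 0.096 SE, adjusted p = 4.23e-07). After Klf4 came Nupr1 (2.89-fold), Ccnd2, the desaturase gene Scd3 (2.61-fold), Nr5a2, the nucleolar gene Nol8 (2.48-fold), Esrrb, Prxl2a (2.45-fold) and the exoribonuclease gene Xrn2 (2.40-fold). Probe sets of a gene differed in size: the changes were 1.27, 0.71 and 0.31 for Xrn2, and 1.31, 0.37 and 0.34 for Nol8.

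The largest supported fall was that of Mfap3l, at 8.39, 8.14 and 8.29 in control medium and 6.39, 6.36 and 5.85 with Wnt3a (4.20-fold lower, log2 -2.07 ± 0.13 SE, adjusted p = 1.79e-06). After Pou3f1 came the zinc transporter gene Slc39a8 (2.93-fold lower), Ugt8a (2.90-fold), the Notch glycosyltransferase gene Lfng (2.88-fold), Golt1b (2.59-fold) and the ER-phagy gene Retreg3 (2.55-fold). Igfbp3, Mthfd2l, Tpbg, Wnt4 and Slc40a1, the iron exporter ferroportin, followed at 2.36-fold to 2.49-fold. Lfng read 8.64, 7.99 and 8.48 in control medium and 6.88, 6.91 and 6.75 with Wnt3a, and its Wnt3a arrays lay closer together than its control arrays.

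Among genes read by a single probe set, which has no such check, the largest rises were Cdx1, Crxos (at least 2.79-fold), Sp5, Rex2 (3.48-fold), Tfcp2l1 and the myosin light chain gene Mylpf (3.05-fold). The largest falls were Tmem54 (3.87-fold lower), Otx2, St6gal2 (at least 1.23-fold), the junction gene Marveld3 (3.49-fold), Max (3.46-fold) and the cadherin gene Cdh10 (at least 2.36-fold). Max, the partner of Myc, read 9.91, 9.42 and 10.08 in control medium and 7.95, 7.98 and 8.12 with Wnt3a. Its change in Tcf3-/- cells was -1.96.

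The same comparison in Tcf3-/- cells shares no array with the wild-type one but shares the medium and its preparation. Tcf7l1 averaged 10.85 in wild-type and 9.47 in Tcf3-/- cells in control medium, lower but well above the floor. Wnt3a raised 1840 genes (13.3%) and lowered 2032 (14.7%) in Tcf3-/- cells, 28.0% in all. Of the wild-type rises 1195 (45.7%) were also called in Tcf3-/- cells, which is 64.9% of the rises there, and of the falls 1315 (42.2% and 64.7%). The changes correlated across 13811 genes at Pearson's r = 0.643; genes are not independent replicates, and preparation is common to both. The effect differed between genotypes in 563 genes (4.08%, limma interaction, adjusted p under 0.05), being lower in Tcf3-/- cells in 1.88% and higher in 2.2%. For the 101 genes that rose at least 2-fold the median change was 1.23 in wild type and 0.53 in Tcf3-/- cells, and 42 passed the interaction toward a smaller change there. For the 168 falls the medians were -1.17 and -0.53, and 49 passed. These counts depend on single arrays: leaving out 1 array at a time gave 151 (without wild-type control array 3) to 952 (without wild-type Wnt3a array 1) genes in place of 563, 26 to 55 in place of 42 and 20 to 69 in place of 49. Members of both groups were chosen by their wild-type change, so a smaller median in the other genotype is partly built in.

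In the naive list 16 of 30 genes passed the interaction (1.88% of all genes tested did so in this direction), all toward a smaller or negative change in Tcf3-/- cells, and the median change there was 0.07 against 0.66. The 16 became 9 without Tcf3-/- control array 1 or wild-type Wnt3a array 2, 10 without wild-type control array 1 or 3 or Tcf3-/- Wnt3a array 2, and at most 21, without wild-type control array 2. Tfcp2l1 changed by 0.15 in Tcf3-/- cells (interaction -1.60, adjusted p = 0.00106), Tbx3 by 0.13 (-1.64, 0.0065) and Esrrb by 0.10 (-1.20, 0.00454). Klf4 still rose there, by 0.47, less than in wild type (-1.15, 0.00427), and Klf2 fell by 0.43 where it rose in wild type (-0.92, 0.00236). In control medium Tcf3-/- cells averaged 11.68 for Klf4, 12.08 for Tfcp2l1, 12.03 for Esrrb and 13.40 for Nanog, beside wild-type means with Wnt3a of 12.01, 11.76, 11.65 and 13.30. These levels are given side by side and were not compared by a test.

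In the Wnt target and feedback list 5 of 32 genes passed the interaction (15.6%, beside 4.08% of all genes): the effect was lower in Tcf3-/- cells for Ccnd2 (-1.84, adjusted p = 0.00468) and Notum (-1.07, 0.0301) and higher for Jun (1.14, 0.0434), Fosl1 and Cd44. Both Fosl1 and Cd44 had a Tcf3-/- mean under the floor. The difference for Fosl1 was lost without any 1 array other than wild-type Wnt3a array 1 and Tcf3-/- Wnt3a array 3 (0.0502 to 0.102), with the replicate block (0.0563) and with probe sets averaged (0.0512). That for Jun was lost without 9 of the 12 arrays, all but wild-type control array 2, wild-type Wnt3a array 1 and Tcf3-/- Wnt3a array 3 (0.0687 to 0.106). That for Notum was lost without 8, all but control array 2 and Wnt3a array 1 of either genotype (0.0578 to 0.0772). For Cdx1 and Sp5, the largest rises of the list, no difference between genotypes passed with all 12 arrays. That for Cdx1 passed without wild-type control array 1 (limma interaction -1.23, adjusted p = 0.0345). Cdx1 rose by 1.97 in Tcf3-/- cells against 2.88 in wild type (interaction -0.91, adjusted p = 0.147) and Sp5 by 1.58 against 1.86 (-0.28, 0.72), which does not show that the effects were equal. Axin2 changed by 0.41 in Tcf3-/- cells (interaction -0.35, adjusted p = 0.388).

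Formative genes had a median of -0.35 in each genotype, 12 of 27 fell in Tcf3-/- cells, and 2 passed the interaction. Otx2 fell by 1.57 there and Pou3f1 by 1.12 (interaction adjusted p = 0.693 and 0.55). Epithelial genes had a median of -0.22, with 7 of 24 lower and no interaction passed. In Tcf3-/- cells Ntn1, Kit and Porcn changed by 0.18, 0.57 and 0.17, less than in wild type, with interactions of -1.88, -1.41 and -1.37 (adjusted p = 0.00106, 0.00106 and 0.00106).

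**Figure D4:**
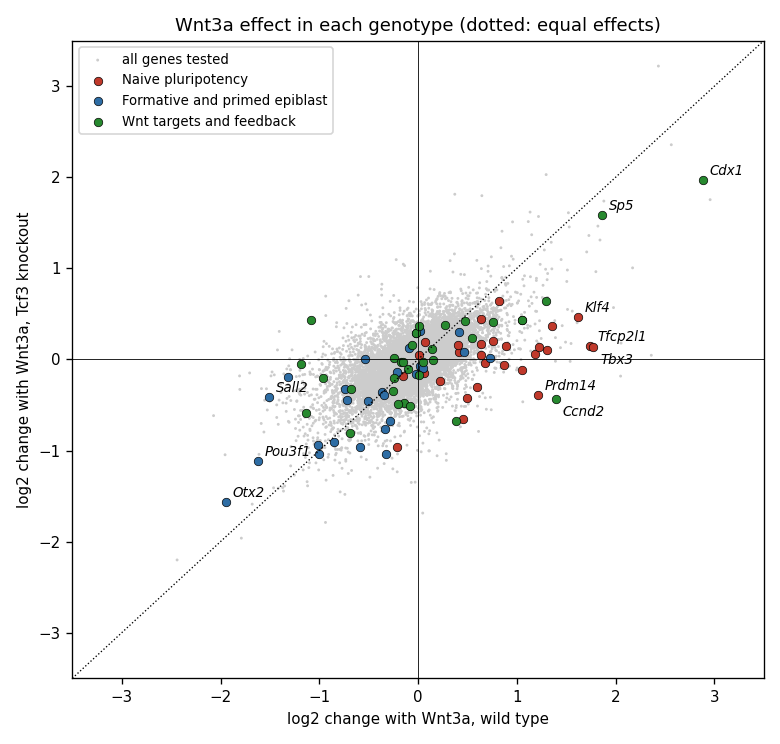
Log2 change with Wnt3a in wild-type cells (horizontal) and in Tcf3-/- cells (vertical) for 13811 genes, with members of 3 lists coloured; the dotted line marks equal changes. Naive genes (red) spread to the right near 0 on the vertical axis, while Cdx1 and Sp5 (green) and Otx2 and Pou3f1 (blue) lie nearer to the line.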

How the data were processed

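Expression was measured on 12 Affymetrix arrays, of which 6 hold wild-type cells. The authors deposited linear intensity values, summarised per the submitters' processing notes with RMA, in a version not given in the sources used here. Log2 was taken with no pseudocount. Gene symbols came from the platform annotation and were updated through RefSeq. A gene was tested if 3 or more of the 12 arrays exceeded the 40th percentile over probe sets other than array controls, which was 5.56 (log2; 47.2 as intensity). This level also served as the floor for folds written as at least N-fold. With no detection calls, it is not a measured background.

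Means of 4 groups were fitted over all 12 arrays with limma 3.58.1 in R 4.3.3 (lmFit, eBayes), with Benjamini-Hochberg adjustment over 13811 genes or 24503 probe sets, without a replicate block. The fit was tested on simulated data. With 3 arrays per group, their number limits the precision. The members and the 33 lists (765 symbols, 53 not matched, Tcf7 and T among them) were chosen with earlier results of these data known, so lists are described by counts and medians only. Named are the 12 largest rises and falls with all probe sets in support, the 6 largest of each with a single probe set, 4 called and 2 other members of each list, and a fixed set of Wnt and pluripotency genes, part of which is printed. The rankings of largest rises and falls kept only called genes whose wild-type arrays did not overlap, and passed over RIKEN, Gm, LOC and other provisional names. Alternatives were another centring and normalization, other filters, the mean of all probe sets, only the 6 wild-type arrays, each array left out, an intensity trend and a replicate block.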

Additional observations from a re-analysis of the deposited data

Results flagged for a closer look

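For 12 of the Wnt and pluripotency genes looked up in every case, the Wnt3a effect differed between Tcf3-/- and wild-type cells (limma interaction, Tcf3-/- effect minus wild-type effect, log2). It was lower in Tcf3-/- cells by -1.84 for Ccnd2, -1.64 for Tbx3, -1.61 for Prdm14, -1.60 for Tfcp2l1, -1.20 for Esrrb, -1.15 for Klf4, -1.11 for Dppa3, -0.99 for Nr5a2, -0.92 for Klf2, -0.74 for Nanog and -0.47 for Zfp42, and higher by 0.74 for Id1. Those of 9 genes held whichever single array was left out. The difference for Zfp42 was lost without 9 of the 12 arrays, all but wild-type control array 2, wild-type Wnt3a array 1 and Tcf3-/- Wnt3a array 1 (adjusted p from 0.0537 to 0.0914). That for Id1 was lost without wild-type control array 1 or 3, Tcf3-/- control array 1, wild-type Wnt3a array 2 or 3, or Tcf3-/- Wnt3a array 2 (0.0515 to 0.0685), and that for Dppa3 without Tcf3-/- control array 1 (0.0516) or wild-type Wnt3a array 2 (0.0507). Preparation differed between media in both genotypes, and its part in these differences was not tested.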

How the results depend on the processing

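Counts of genes higher (2615) and lower (3118) with Wnt3a ranged from 1924 to 2691 and from 2335 to 3230 when 1 array was left out. At 2-fold or more, 101 ranged from 86 to 122 and 168 from 131 to 227. Over all probe sets the counts were 5379 and 5409, with 477 and 280 at 2-fold or more, and with the mean of all probe sets 102 genes fell at least 2-fold. The median of the Wnt target list ranged from -0.06 to -0.02 without single arrays and was 0.031 with arrays centred on the median. That of the naive list ranged from 0.63 (without wild-type Wnt3a array 3) to 0.81 (without wild-type control array 2). Genes with an interaction ranged from 151 to 952 without single arrays, and 1015 probe sets passed. Nes (0.12), Runx1 (0.034) and Cdkn1b (0.034) changed sign when probe sets were averaged, and the probe sets of each disagree. Ctnnb1, at 0.00 on its brightest probe set, was called higher when probe sets were averaged (0.24, limma, adjusted p = 0.00287). Its other probe sets changed by 0.11 and 0.60. Whether the replicate numbers pair the arrays was not settled. Deviations of same-numbered arrays correlated at 0.24, -0.05 and 0.01, and those of arrays with different numbers at -0.29 to 0.29. With 3 arrays per group these values cannot decide it. With the replicate block 2474 genes were higher and 3000 lower. The number of arrays limits the weakest calls, and the part of preparation was not tested.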

Other observations

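Several lists outside the pathways above held many called genes, to be read beside 18.9% of all genes called higher and 22.6% lower with Wnt3a. Of 17 germ cell genes 9 rose and 2 fell (median 0.34), led by Kit, the RNA-binding protein gene Dazl (2.20-fold, 2 of 2 probe sets), the meiotic gene Hormad1 (1.89-fold) and Piwil2 (1.82-fold). Dazl read 6.58, 7.07 and 6.71 in control medium and 7.73, 7.80 and 8.25 with Wnt3a, and its rise was 0.91 in Tcf3-/- cells. All 5 tested genes of the 2-cell-like state rose (median 0.78, the change of Arg2, whose call was lost without any 1 control array or without Wnt3a array 1 or 2, adjusted p from 0.0503 to 0.103), among them Sp110 (2.0-fold), Usp17la (1.76-fold) and Zfp352 (1.69-fold), while none of the 5 was called in Tcf3-/- cells, where the median was 0.14. The interaction passed for 1 of them. Of 22 genes of amino acid and unfolded protein stress 11 rose and 5 fell (median 0.23). Nupr1 read 7.60, 7.11 and 7.19 in control medium and 8.89, 8.69 and 8.91 with Wnt3a, Sesn2 rose 2.11-fold with 1 of 2 probe sets called, and the asparagine synthetase gene Asns rose 1.90-fold on 2 of 2. Control array 1 lay nearest to the Wnt3a arrays in 9 of the 11 rises.

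Of 34 cell cycle and replication genes 14 rose and 5 fell (median 0.14), with Mybl2 1.55-fold higher after Ccnd2. The G1 inhibitor gene Cdkn1b and the cyclin gene Ccne1 each had probe sets called in opposite directions (0.32 and -0.59 for Ccne1; for Cdkn1b -0.73 on 1 probe set and a rise on another whose means lay under the floor in both media), as had the imprinted RNA gene Rian (0.43 against -1.02 and -1.68). Of 22 imprinted genes 8 fell and 3 rose (median -0.17), with Plagl1 2.87-fold higher on 2 of 3 probe sets and Igf2r 2.30-fold on 1 of 2. Of 20 Myc network genes 6 rose and 3 fell (median 0.02), with Mxi1 1.48-fold higher. In the DNA methylation list 5 of 16 rose and 3 fell (median 0.12), and the demethylation enzyme genes Tet2 and Tet1 rose 1.60-fold and 1.37-fold on all of their probe sets. Glycolysis and hypoxia genes moved little as a list, 5 of 24 being higher and 4 lower (median 0.04), with Pfkp 1.90-fold higher on 3 of 3 probe sets. Of 21 cholesterol and fatty acid genes 5 rose and 2 fell (median 0.04), of 18 interferon-inducible genes 3 rose and 4 fell (median -0.10), and of 16 p53 targets 2 rose and 5 fell (median 0.00). Of 27 ribosomal protein genes 5 rose by 0.15 to 0.46 and none fell (median 0.02).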
